A study of Mus musculus with 6 samples.

Results

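The Maf and cap'n'collar (CNC) factors described here were *Maff*, *Mafg*, *Mafk*, *Maf*, *Nfe2l1*, *Nfe2l3* and *Bach2*. They were chosen by gene name, and the rule found 7 of the 43346 genes in the table of counts. All 7 passed the filter on low counts, as did 17589 genes in total. RNA-seq of polyadenylated RNA was done on primary mouse adult fibroblasts, cells that the study's methods trace to ear tissue of female C57BL6/J mice. Control cells (3 samples) were sham irradiated, and senescent cells (3 samples) had received 20 Gy of X-rays, a dose that stops division through DNA damage. Per the study's methods, irradiated cells were then kept in culture for some weeks, so they were not collected soon after irradiation. A culture time for the control cells is not stated there. Both groups were grown at 3% oxygen, were given 100 nM dexamethasone for 2 hours to bring their circadian clocks into one phase, and were collected 12 hours later. Both groups were wild type, and the values describe 1 time point.

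Maf and CNC proteins are basic leucine zipper (bZIP) transcription factors, which bind DNA as pairs. Small Mafs (MAFF, MAFG and MAFK) have a DNA-binding domain but no activation domain, so a pair of small Mafs tends to repress, while a small Maf joined to a CNC partner takes on the action of that partner. The CNC partners include activators (NFE2, NRF1, NRF2 and NRF3, the last 3 encoded by *Nfe2l1*, *Nfe2l2* and *Nfe2l3*) and repressors (BACH1 and BACH2), and both kinds bind antioxidant response elements in genes for antioxidant enzymes, iron storage and proteasome subunits. Large Mafs such as MAF have an activation domain of their own and act in differentiation, for example of lens, cartilage and immune cells. Much of the control over CNC factors acts on the protein, which RNA-seq does not measure.

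Levels are in CPM, which is counts divided by library size (corrected for composition with edgeR's TMM factors) and set to a common total, with SD over 3 samples. The test was edgeR's two-sided quasi-likelihood test, and adjusted p refers to Benjamini-Hochberg adjustment over the 17589 tested genes. Total counts lay between 50288454 and 82229553 per library, and 3 counts, the limit that a count of 0 allows, were worth between 0.0355 and 0.0613 CPM, for counting error only. The labels number the replicates but do not say that they came from separate cultures or animals, so the p-values measure the spread between these samples, which may be technical. Senescent replicate 3 stood apart from the other senescent libraries, with a median absolute log2 difference of 0.211 and 0.222 to replicates 1 and 2, against 0.0503 between those. Its values are therefore given for each of the 7 genes. The check genes went as the labels have it, with *Cdkn1a* and *Cdkn2a* higher (log2 fold changes of 2.33 and 1.90) and *Mki67* and *Lmnb1* lower (-5.94 and -3.55) in senescent cells. Summed fibroblast markers (9 genes) lay between 14032 and 15893 CPM in control and between 5849 and 6977 CPM in senescent libraries. Of these, 4 were higher and 4 lower at an adjusted p under 0.05, against 36.2% and 34.1% of all tested genes.

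At an adjusted p under 0.05, 5 of the 7 genes rose and 1 fell in senescent cells. *Maff*, *Mafg*, *Mafk*, *Maf* and *Nfe2l1* rose, *Nfe2l3* fell, and *Bach2* did not pass. Of all tested genes, 36.2% were called higher and 34.1% lower by this rule, so calls were common among all genes. With the limit in the study's methods (p under 0.05 before adjustment, more than 2-fold), *Maff* and *Mafk* were higher and *Nfe2l3* was lower, against backgrounds of 17.8% and 12.3%. The groups did not overlap in 5 genes that were higher and 1 that was lower, against 38.4% and 37% of tested genes. The median log2 fold change of the 7 genes was 0.51, and that of all tested genes was 0.01. In bulk RNA, fewer cells with a transcript and less of it per cell cannot be told apart.

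**Figure D1:**
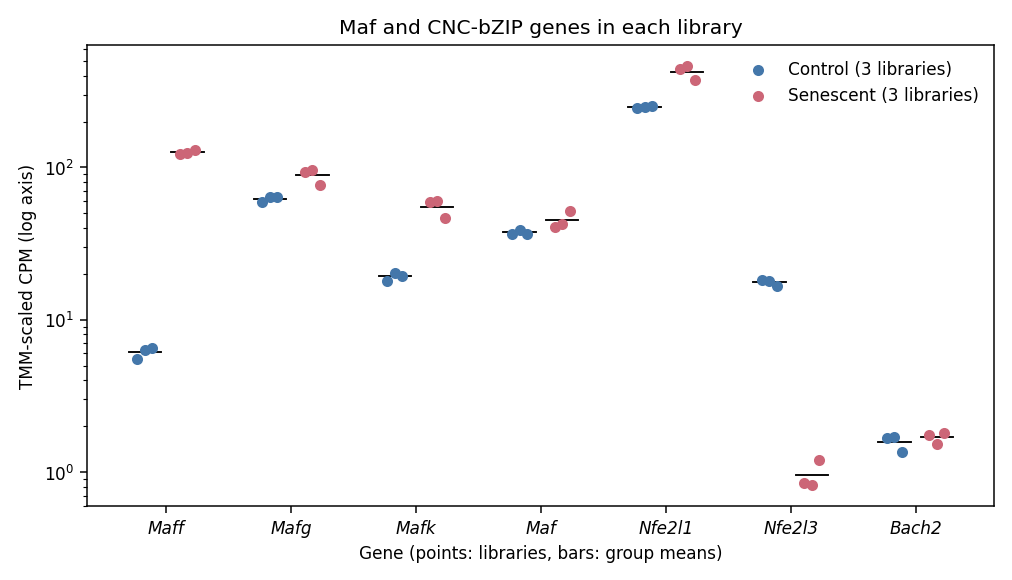
TMM-scaled CPM (vertical log axis) of the 7 genes in each of the 3 control and 3 senescent libraries, with points for libraries and bars for group means. *Maff* moved from about the level of 6.10 CPM to 126 CPM, *Nfe2l3* from 17.6 CPM to 0.954 CPM, and only the points of *Bach2* overlap between the groups.

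Promoter sequences were taken from RefSeq on GRCm38.p6, the assembly that mm10 names, and held 12 start sites for 6 of the 7 genes (all but *Maf*). The 250 bases before each start were searched on both strands for short motifs. CACGTG, the E-box bound by clock proteins such as BMAL1, was present before a start of *Maff*, *Mafg* and *Mafk*, that is in 3 of the 6 genes, and in 6.86% of all 27025 genes with a promoter in the set. By window, it was in 6.02% of all 32851 windows. A gene with several starts, such as *Maff* or *Nfe2l1*, has more windows in which a motif can occur, which the shares of genes given here do not correct for. The 3 stretches are shown because the same letters occur in every small Maf gene, with the E-box in capitals and each read 5′ to 3′ on the strand of the gene.
*Maff*, chr15:79347317-79347346 (+): ctccagaggtgtCACGTGaatgcatccaga
*Mafg*, chr11:120633571-120633600 (-): atgaatggaaccCACGTGaccaaacatcat
*Mafk*, chr5:139791316-139791345 (+): atgagacaactgCACGTGgaagcatgtagg
The E-box began 191 bases before the start in *Maff*, 41 bases before it in *Mafg* and 208 bases before it in *Mafk*. The *Mafg* stretch lies inside the gene's span in the table of counts, since that annotation has an earlier start. The only *Bach2* window, before a start at 32417435, also lies inside the span of its gene. The bases before the first base of that span were not searched. TGACNNNGC, the core of the antioxidant response element, was also found in *Maff*, *Mafg* and *Mafk*, against 11.5% of all genes, and in *Maff* it lay before another start than the E-box did. In *Mafk* it began 13 bases before the start, inside the span of the gene in the table of counts. The cAMP response element TGACGTCA was found in *Maff*, against 1.77% of all genes. TGACTCA, the AP-1 site, was in none of the 6 genes and in 5.16% of all genes. TGCTGAC, a half-site for Maf binding, was found in *Nfe2l1*, against 4.31% of all genes. These motifs can share letters, as AP-1 sites, antioxidant response elements and Maf half-sites all hold TGAC. A match is a description of the letters in the window and says nothing on binding in these cells.

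The windows of *Maff* and *Nfe2l3* are given in full because these genes had the largest increase and the largest decrease of the 7. In *Maff*, capitals mark the E-box and, 29 bases before the start, the cAMP response element. The *Nfe2l3* window held none of the motifs searched.
*Maff*, chr15:79347270-79347519 (+): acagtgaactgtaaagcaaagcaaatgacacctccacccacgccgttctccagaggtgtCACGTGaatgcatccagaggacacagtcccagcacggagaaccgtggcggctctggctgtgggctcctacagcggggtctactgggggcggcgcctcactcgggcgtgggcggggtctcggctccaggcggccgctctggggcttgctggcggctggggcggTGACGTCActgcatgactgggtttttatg
*Nfe2l3*, chr6:51432419-51432668 (+): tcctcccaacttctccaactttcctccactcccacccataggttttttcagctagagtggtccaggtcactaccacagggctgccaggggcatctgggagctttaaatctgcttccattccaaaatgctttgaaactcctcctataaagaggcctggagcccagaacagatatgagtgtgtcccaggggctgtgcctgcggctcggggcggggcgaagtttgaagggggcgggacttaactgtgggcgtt

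Among the small Mafs, *Maff* (ENSMUSG00000042622, chromosome 15 of mm10 from 79347541 to 79359072) had the largest difference. MAFF is known as the small Maf whose gene responds most readily to stress and inflammatory signals. *Maff* was at 5.53, 6.29 and 6.48 CPM in control replicates 1, 2 and 3 and at 123, 125 and 130.0 CPM in senescent replicates 1, 2 and 3. The 3 senescent libraries lay close together, and the lowest of them was 19.0 times the highest control library. The means were 6.10 ± 0.500 and 126 ± 3.70 CPM (SD, n = 3 per group). On the log2 scale the fold change was 4.37 ± 0.08 (SE), which passed at an adjusted p of 1.25e-08 (edgeR quasi-likelihood, Benjamini-Hochberg) and is 20.6-fold higher, with a 95% interval from 18.2 to 23.5. Of all tested genes, 669 (3.80%) had a larger absolute log2 fold change.

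*Mafk* (ENSMUSG00000018143, chromosome 5 from 139791513 to 139802653), which encodes the small Maf first known as a partner of NFE2 in red blood cell precursors, also rose. Its levels were 18.1, 20.2 and 19.5 CPM in control and 59.2, 59.9 and 46.4 CPM in senescent replicates 1, 2 and 3. Senescent replicate 3 was the lowest of its group and still lay well above every control library. *Mafk* had a log2 fold change of 1.52 ± 0.11 (SE; adjusted p = 8.78e-06, same edgeR test), 2.86-fold higher with a 95% interval from 2.40 to 3.42.

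*Mafg* (ENSMUSG00000051510, chromosome 11 from 120625117 to 120633600) encodes the small Maf that is a main partner of NRF2 in many tissues. It stood at 59.4, 63.5 and 63.9 CPM in control and at 93.5, 96.3 and 77.0 CPM in senescent replicates 1, 2 and 3. Every senescent library was above every control library, and replicate 3 was again the lowest senescent one. The log2 difference was 0.51 ± 0.09 (SE; adjusted p = 0.00126, same edgeR test), 1.43-fold higher with a 95% interval from 1.23 to 1.65. *AL663030.1*, a pseudogene of 501 bases, lies wholly within the span of *Mafg*, and its own counts changed by 0.29 on the log2 scale (adjusted p = 0.0976, same edgeR test). *Sirt7*, on the same strand, overlaps *Mafg* by 124 bases and had a log2 fold change of -0.18 (adjusted p = 0.191, same edgeR test). Reads in these stretches could have been counted for either gene or for none.

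Because counts grow with transcript length, levels were compared between genes per kilobase (kb) of exon. In control cells, *Mafg* was the most abundant small Maf, at 11.1 ± 0.438 CPM per kb, followed by *Mafk* at 4.94 ± 0.278 and *Maff* at 2.88 ± 0.236 CPM per kb (SD, n = 3). In senescent cells, *Maff* led at 59.4 ± 1.74 CPM per kb, while *Mafg* (15.8 ± 1.85) and *Mafk* (14.1 ± 1.94 CPM per kb) overlapped in range (SD, n = 3). The order of the small Mafs therefore differed between the groups, and the ratio of *Maff* to *Mafg* went from 0.259 ± 0.0114 to 3.80 ± 0.585 (SD, n = 3 per group). The ratio of *Mafk* to *Mafg* went from 0.445 ± 0.0113 to 0.891 ± 0.0219.

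As a share of the summed small Maf level, *Maff* made up 14.6%, 15.3% and 15.7% in control replicates 1, 2 and 3 and 64.6%, 64.5% and 70.5% in senescent replicates 1, 2 and 3. *Mafg* went the other way in share although its own level rose, from 58.7% ± 0.634 to 17.7% ± 1.67, and *Mafk* went from 26.1% ± 0.466 to 15.8% ± 1.82 (SD, n = 3 per group). The groups did not overlap in any of the 3 shares. An exact two-sided permutation test of 3 against 3 gave p = 0.1 for each, which is the smallest p this design allows. The shares depend on exon length. From counts without the division by length, *Maff* went from 6.95% to 46.8%, *Mafg* from 71.1% to 32.9% and *Mafk* from 22.0% to 20.4%.

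**Figure D2:**
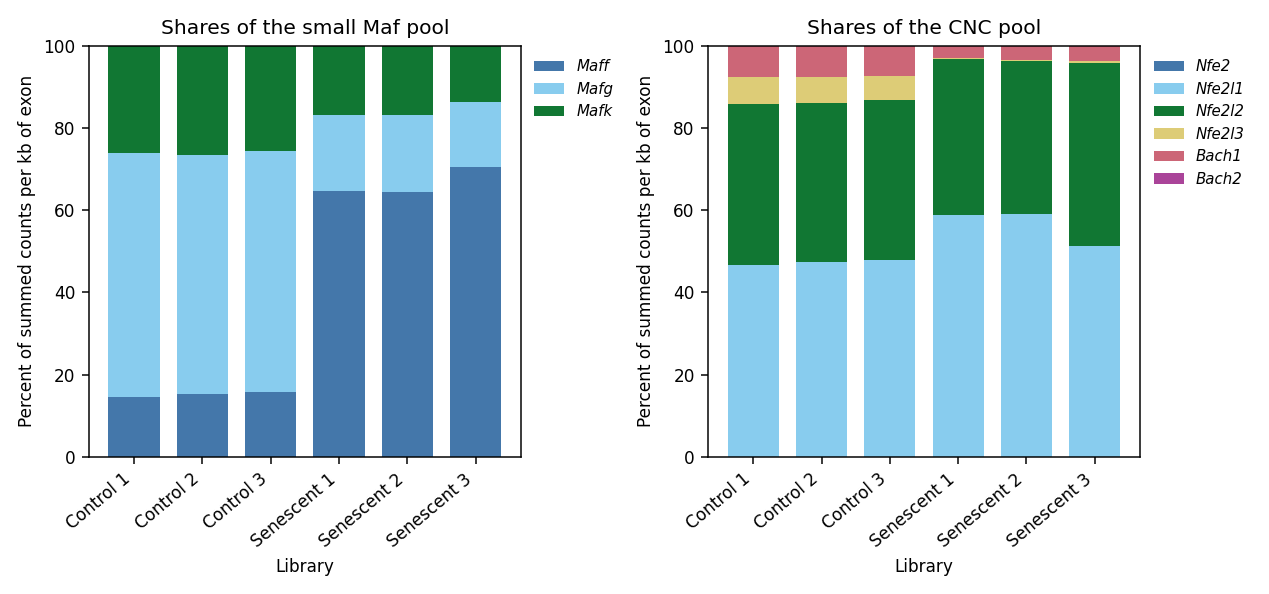
Percent of the summed counts per kb of exon (vertical axis) held by each small Maf (left) and each CNC factor (right) in the 6 libraries. *Maff* takes between 64.5% and 70.5% of the small Maf sum in senescent libraries against at most 15.7% in control libraries, and the *Nfe2l3* band of the CNC sum shrinks from 6.11% to 0.232% on average.

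The summed small Maf level was 18.9 ± 0.931 CPM per kb in control and 89.4 ± 2.25 CPM per kb in senescent cells (SD over 3 samples each), 4.73-fold higher. The summed level of the 6 CNC genes (*Nfe2*, *Nfe2l1*, *Nfe2l2*, *Nfe2l3*, *Bach1* and *Bach2*) was 97.1 ± 0.532 and 138.9 ± 5.06 CPM per kb, 1.43-fold higher. The ratio of small Maf to CNC transcripts was 0.185, 0.200 and 0.199 in control and 0.648, 0.635 and 0.649 in senescent replicates 1, 2 and 3. CNC transcripts outnumbered small Maf transcripts in all 6 libraries, and the ratio was about the same in senescent replicate 3 as in the other senescent libraries. An exact permutation test gave p = 0.1 for each of these 3 quantities, the smallest it can give. Like the shares, the sums and their ratio depend on exon length. *Maff* has the shortest exons of the small Mafs (2119 bases, against 5613 for *Mafg* and 3901 for *Mafk*), so the division raises its weight.

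*Maf* (ENSMUSG00000055435, chromosome 8 from 115682942 to 115707794), the large Maf of the 7 genes, showed the smallest of their called differences. It was at 36.8, 38.8 and 36.7 CPM in control and at 40.9, 42.6 and 51.7 CPM in senescent replicates 1, 2 and 3. The groups did not overlap, but the lowest senescent library was only 1.05 times the highest control library, and senescent replicate 3 was the highest. On the log2 scale the difference was 0.27 ± 0.09 (SE), with a 95% interval from 0.05 to 0.49 (adjusted p = 0.0342, same edgeR test). This call was lost with a replicate block (0.26, adjusted p = 0.0583, same edgeR test) and without control replicate 1, 2 or 3 (adjusted p = 0.0950, 0.0614 and 0.102). Without senescent replicate 3 the call was kept, at a smaller log2 fold change of 0.17 (adjusted p = 0.00663, same edgeR test). An antisense gene that overlaps *Maf* by 2156 bases, *Gm15655*, had at most 1 count in any library.

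The large Mafs *Mafa*, a regulator of insulin transcription, and *Nrl*, which acts in rod photoreceptors, had at most 5 and 3 counts in any library and were not tested.

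*Nfe2l1* (ENSMUSG00000038615, chromosome 11 from 96817414 to 96829968) encodes NRF1, which is held in the membrane of the endoplasmic reticulum and, once cleaved, activates proteasome genes. It was the most abundant of the 7 transcripts per kb in both groups. Its levels were 244, 251 and 255 CPM in control and 443, 463 and 374 CPM in senescent replicates 1, 2 and 3. Senescent replicate 3 was the lowest of its group and was 1.47 times the highest control library. Senescent cells were higher by a log2 fold change of 0.77 ± 0.08 (SE; adjusted p = 8.68e-05, same edgeR test), 1.71-fold higher with a 95% interval from 1.49 to 1.95.

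*Nfe2l3* (ENSMUSG00000029832, chromosome 6 from 51432670 to 51458768) encodes NRF3, a relative of NRF1 that is also held in the endoplasmic reticulum and is abundant in placenta and in some tumours. It was the only one of the 7 genes that fell. Its counts were 910, 1072 and 820 in control and 47, 65 and 101 in senescent replicates 1, 2 and 3, which is 18.2, 17.9 and 16.8 CPM against 0.848, 0.820 and 1.20 CPM. The transcript was still well above the limit that a count of 0 allows in each senescent library, and every control library exceeded every senescent library by a wide margin. Its log2 fold change was -4.19 ± 0.15 (SE; adjusted p = 1.77e-07, same edgeR test), 18.3-fold lower, and 739 tested genes (4.20%) had a larger absolute value. Without senescent replicate 3, the highest senescent library, the log2 fold change was -4.40.

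*Bach2* (ENSMUSG00000040270, chromosome 4 from 32238804 to 32586108) encodes a repressor known from B and T lymphocytes. It had between 66 and 152 counts, and its levels were 1.68, 1.71 and 1.35 CPM in control and 1.75, 1.53 and 1.80 CPM in senescent replicates 1, 2 and 3. The groups overlapped. A log2 fold change of 0.09 ± 0.15 (SE) had a 95% interval from -0.24 to 0.43 (adjusted p = 0.582, same edgeR test), so that a change between 0.845-fold and 1.35-fold lies within the interval. Without control replicate 3, the library with the lowest level, it was -0.01. The lymphocyte markers (7 genes) summed to between 0.0601 and 0.0669 CPM in control and between 0.249 and 0.429 CPM in senescent libraries, and none had enough counts for a test. *Bach2os*, an antisense gene within *Bach2*, had 1, 2 and 2 counts in control and 6, 4 and 18 counts in senescent replicates 1, 2 and 3, and a strand setting for the counting is not given in the sources used here.

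**Figure D3:**
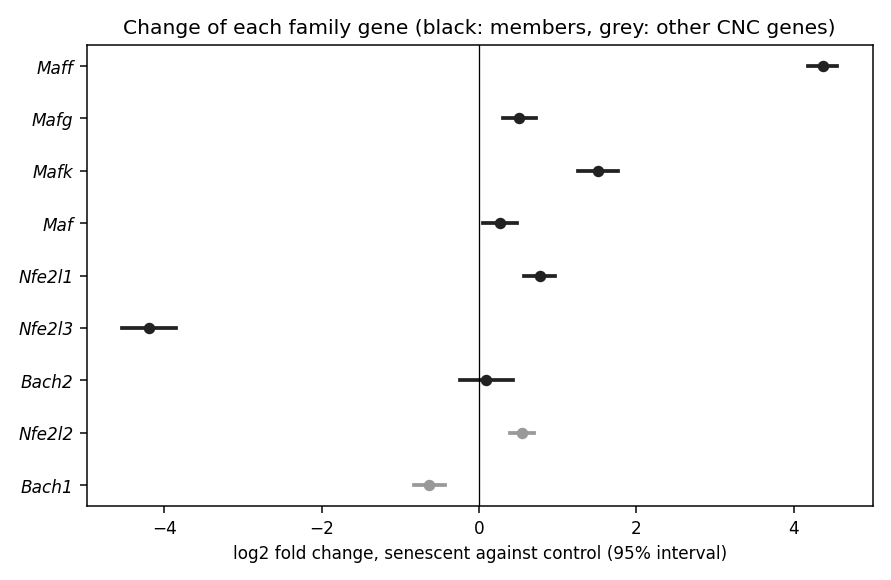
Log2 fold change of senescent against control cells (horizontal axis) with 95% intervals from edgeR for the 7 genes (black) and for *Nfe2l2* and *Bach1* (grey). *Maff* at 4.37 and *Nfe2l3* at -4.19 lie far from the others, which range from -0.63 to 1.52, and the interval of *Bach2* spans 0.

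The related CNC genes outside the 7 gave the following values. *Nfe2l2*, which encodes NRF2, the main activator of the response to oxidants, rose from 143.5 ± 0.930 to 209.9 ± 14.9 CPM (log2 fold change of 0.55, adjusted p = 0.000134, same edgeR test). *Bach1*, which encodes a repressor released by haem, fell from 44.7 ± 0.582 to 28.9 ± 2.91 CPM (SD over 3 samples each), or -0.63 on the log2 scale (adjusted p = 0.000254, same edgeR test). *Nfe2*, the erythroid member, had between 6 and 11 counts in control and between 1 and 4 counts in senescent libraries and was not tested.

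Within the summed CNC level, *Nfe2l1* held 46.5%, 47.4% and 47.9% in control and 58.8%, 59.1% and 51.3% in senescent replicates 1, 2 and 3. *Nfe2l3* went from 6.11% ± 0.303 to 0.232% ± 0.0591 and *Bach2* from 0.164% ± 0.0214 to 0.123% ± 0.0147 (SD, n = 3 per group). The groups did not overlap in these 3 shares, with an exact permutation p of 0.1, the smallest possible, for each. For *Bach2* the gap was narrow, between 0.139% in control replicate 3, from 66 counts, and 0.135% in senescent replicate 3. The level of *Bach2* itself was not called different (1.58 and 1.69 CPM on average), and its share went down beside a higher sum. The share of *Bach1*, outside the 7 genes, went from 7.45% ± 0.132 to 3.37% ± 0.351 (SD, n = 3 per group; exact permutation p = 0.1). The share of *Nfe2l2* was 38.9% ± 0.362 in control and 39.9% ± 4.09 in senescent cells, and the groups overlapped (exact permutation p = 1). The ratio of *Nfe2l1* to *Nfe2l2* was 1.21 ± 0.0279 in control cells. In senescent cells it was 1.55, 1.59 and 1.15 in replicates 1, 2 and 3, so that replicate 3 lay below the control libraries (exact permutation p = 0.4).

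Set in order of level per kb, the 7 genes in control cells ran from *Nfe2l1* (45.9 ± 0.936 CPM per kb) through *Mafg*, *Nfe2l3*, *Mafk*, *Maf* and *Maff* to *Bach2* (0.159 ± 0.0202). Of the neighbours in this order, *Mafk* and *Maf* overlapped in range. In senescent cells the order was *Nfe2l1* (78.4 ± 8.59 CPM per kb), *Maff*, *Mafg*, *Mafk*, *Maf*, *Nfe2l3* and *Bach2* (0.170 ± 0.0147; SD, n = 3 per group), and only *Mafg* and *Mafk* overlapped. *Maff* thus moved from the sixth place in control to the second in senescent cells, while *Nfe2l3* moved from the third place to the sixth, at 5.93 ± 0.264 and 0.321 ± 0.0705 CPM per kb.

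CNC proteins are controlled by degradation and cleavage, and 12 genes of this machinery were tested. Of these, 3 rose, 3 fell and 6 did not pass, against 36.2% called higher and 34.1% called lower among all tested genes. The median log2 fold change was 0.00 against 0.01 for all tested genes. The number that rose was 1 without control replicate 2 or without control replicate 3, and the number that fell was 1 with scaling by library size and no TMM factor. *Fbxw7*, whose product marks NRF1 and NRF3 for degradation, and *Cul3*, the ligase scaffold that turns over NRF2, had log2 fold changes of 0.68 and 0.30 (adjusted p = 4.49e-05 and 0.0199, same edgeR test). *Keap1*, the adaptor that joins NRF2 to CUL3, and *Ddi2*, the protease that cleaves NRF1, had log2 fold changes of -0.33 and -0.22 (adjusted p = 0.0289 and 0.0058, same edgeR test). Senescent replicate 3 lay apart in *Cul3*, at 162 CPM against 131 and 130 CPM in replicates 1 and 2, and in *Keap1*, at 38.5 CPM against 48.4 and 53.1 CPM. *Vcp*, which draws NRF1 out of the membrane, was at 550.2 ± 24.4 and 561 ± 63.6 CPM (SD, n = 3 per group; adjusted p = 0.784), and *Rbx1*, the ring subunit of the ligase, had a log2 fold change of -0.05 (adjusted p = 0.390, same edgeR test).

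Genes with antioxidant response elements are bound by pairs of CNC factors and small Mafs. Of 25 tested, 15 rose, 7 fell and 3 did not pass, against 36.2% higher and 34.1% lower among all tested genes. The median log2 fold change was 0.56. *Slc7a11*, the cystine transporter, rose from 4.65 ± 0.309 CPM to 45.1 ± 5.79 CPM (SD over 3 samples each) with a log2 fold change of 3.28 (adjusted p = 1.83e-07, same edgeR test). *Hmox1*, which encodes the enzyme that breaks down haem, had a log2 fold change of 2.34, and the ferritin genes *Fth1* and *Ftl1* of 1.40 and 0.68 (adjusted p = 6.09e-07, 1.77e-07 and 0.0151, same edgeR test). Ferritin genes have many near-identical copies in the genome, which makes their counts uncertain. *Ftl1* was at 827, 962 and 918 CPM in control and at 1606, 1752 and 973 CPM in senescent replicates 1, 2 and 3, so that senescent replicate 3 lay only just above the control libraries. *Tkt*, an enzyme of the pentose phosphate pathway, and *Cat*, catalase, both had a log2 fold change of -0.93 (adjusted p = 0.0011 and 1.49e-06, same edgeR test). *Tkt* was at 139, 147 and 93.3 CPM in senescent replicates 1, 2 and 3, with replicate 3 the lowest.

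Of the genes that BACH proteins are known to repress, 5 of 6 were tested, and 3 rose, 1 fell and 1 did not pass (median log2 fold change of 0.68). The shares over all tested genes were 36.2% higher and 34.1% lower. *Hmox1*, *Fth1* and *Ftl1* are in this list too. *Slc40a1*, the iron exporter, fell from 6.14 ± 1.17 to 2.31 ± 0.278 CPM (SD over 3 samples each), or -1.41 on the log2 scale (adjusted p = 0.000125, same edgeR test). *Prdm1*, a target of BACH2 in B cells, had 0, 1 and 0 counts in control and 16, 10 and 25 counts in senescent replicates 1, 2 and 3 and was not tested.

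Proteasome subunit genes, the known targets of NRF1, went both ways, as did tested genes in general. Of 33 tested, 11 rose, 8 fell and 14 did not pass, against 36.2% higher and 34.1% lower among all tested genes. The median log2 fold change was 0.00. *Psmd8* and *Psmd14*, of the regulatory particle, had log2 fold changes of 0.88 and 0.59, and *Psma7* and *Psmb6*, of the core, of -0.45 and -0.39 (adjusted p = 1.84e-06, 0.000202, 0.000347 and 0.0270, same edgeR test). *Psma2*, a core subunit, was at 143 ± 0.930 and 174 ± 20.4 CPM (SD over 3 samples each), with a log2 fold change of 0.29 (adjusted p = 0.0163, same edgeR test). The summed level of all 33 was between 4226 and 4261 CPM in control and between 4443 and 4518 CPM in senescent libraries. The number that fell was 4 with scaling by library size and no TMM factor, or when a minimum of 10 counts in each library was required, and between 4 and 11 with 1 library left out (5, 4 and 5 without control replicate 1, 2 and 3).

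AP-1 subunits are bZIP proteins that can pair with some Maf proteins and bind related sites. Of 11, 9 were tested, 5 rose, 2 fell and 2 did not pass, with a median log2 fold change of 0.55. Among all tested genes, 36.2% were called higher and 34.1% lower. *Atf3* had a log2 fold change of 3.86 and *Fosl1* of 1.93, and *Fosl2* went from 240 ± 1.10 to 351 ± 7.73 CPM (log2 fold change of 0.55), while *Fos* and *Jund* had log2 fold changes of -0.80 and -0.75 (adjusted p = 5.53e-08, 1.69e-05, 3.08e-05, 0.0002 and 0.0136, same edgeR test). Without control replicate 2, 1 subunit fell. The log2 fold change of *Maff* (4.37) was larger than that of any tested AP-1 subunit.

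**Figure D4:**
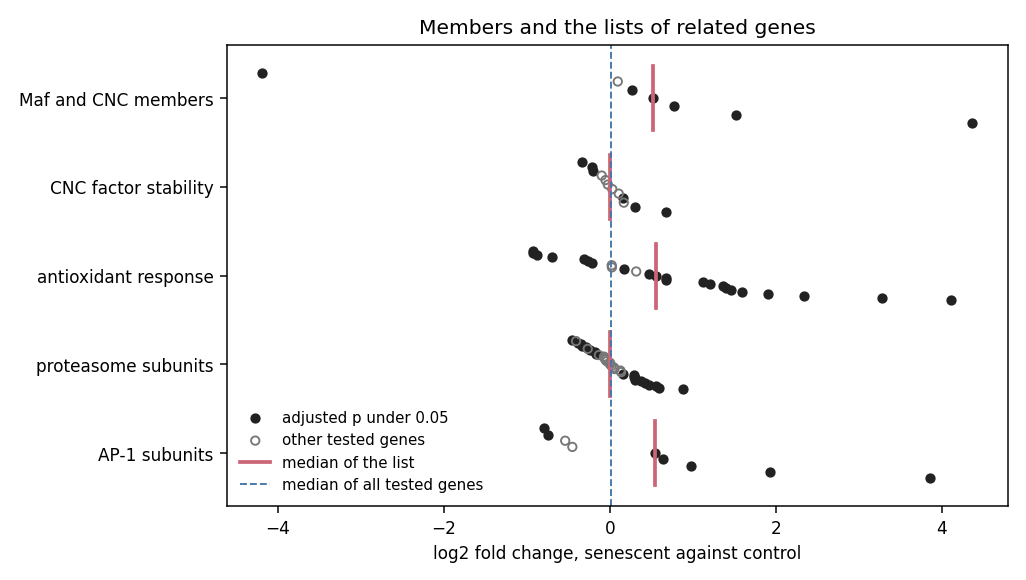
Log2 fold change of senescent against control cells (horizontal axis) for the 7 Maf and CNC genes and for each tested gene of 4 related lists, with filled points for an adjusted p under 0.05, a bar for the median of each list and a dashed line for the median of all tested genes. The medians were 0.51 for the 7 genes, 0.56 for antioxidant response element genes and 0.55 for AP-1 subunits, and 0.00 for stability and proteasome genes.

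Markers of other cell types moved between the groups as well. Over all tested genes, 36.2% were higher and 34.1% lower at an adjusted p under 0.05. Summed chondrocyte markers (11 genes tested, 10 lower and 1 higher) lay between 5521 and 6046 CPM in control and between 396 and 461 CPM in senescent libraries. Summed macrophage markers (5 tested of 8, all 5 higher) lay between 6.11 and 6.82 CPM in control and between 14.3 and 16.6 CPM in senescent libraries, with 2 of the 8 at no more than 3 counts in every library. Endothelial markers (4 genes, all higher) went from between 2.43 and 2.83 to between 7.38 and 8.08 CPM, and keratinocyte markers (4 tested of 8, 1 higher and 1 lower) from between 15.9 and 16.6 to between 21.2 and 22.3 CPM. *Maf* is known from cartilage and macrophages, and the part of these cell types in the values of the 7 genes was not tested.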

How the data were processed

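RNA-seq of 3 control and 3 senescent samples of mouse adult fibroblasts was analysed. Per the study's methods, paired reads were mapped to mm10 with STAR within the MAPRSeq pipeline, and the authors deposited counts per gene from Subread without normalization, beside exon lengths. Those methods name a stranded library kit. The strand setting of the counting and the handling of reads with several matches are not given in the sources used here.

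Genes were kept by filterByExpr, scaled by TMM and tested with edgeR's quasi-likelihood test in its robust form (edgeR 4.0.16, limma 3.58.1, R 4.3.3), with the group as the only term, and tested on simulated data first. The standard error is the log2 fold change divided by the square root of F. Shares and ratios used counts per kb of exon and an exact permutation test. Depth was between 50288454 and 82229553 counts per library. Deviations from the group means of samples with the same replicate number had correlations of mixed sign (-0.47, 0.36 and -0.31 over 12958 genes). These do not settle whether the numbers pair samples. Samples of each pair within a group differed by more than sampling noise.

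The members and lists were chosen with earlier results of these data known. Named were all 7 members, the other 6 family genes, genes that overlap a member, and, from each list, the 2 genes with the highest level per kb and the 2 called genes with the largest change in each direction (mean count of at least 100), and the 2 genes most like each member whose groups did not overlap. Of the genes this rule takes, 2 are not reported here. Alternatives were RLE scaling, library size alone, no filter, at least 10 counts in every library, DESeq2 1.42.0, a replicate block, and each library left out. The study's other assays were not analysed here. Motifs were searched with Python 3.11.15.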

Additional observations from a re-analysis of the deposited data

How the results depend on the processing

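Of 372 values under the alternatives, 357 kept their direction and their side of the threshold, or moved by less than the limits set, 15 did not, and 2 of these reversed. For the shares only the direction was compared. The *Mafk* share thus counts as kept, though its difference went from -10.3 to -1.60 percentage points without the division by exon length. The replicate block cannot change a mean difference in shares, so those values were kept by construction. The log2 fold change of *Maf* was 0.26 with a replicate block (call lost), which changed no other call of the 7 genes, and ranged from 0.17 to 0.34 with 1 library left out. That of *Bach2* ranged from -0.0108 to 0.174, and reversed without control replicate 3 (-0.0108). With 1 library left out, 4 to 5 of the 7 genes were called higher, between 1 and 4 stability genes rose, 4 to 11 proteasome genes and 1 to 3 AP-1 genes fell, and the difference in the *Nfe2l2* share ranged from -1.38 (reversed, without senescent replicate 3) to 2.32 percentage points. With library size alone, 1 stability gene and 4 proteasome genes fell, and with at least 10 counts in every library 4 proteasome genes fell. The cause was not tested. The labels do not say whether the replicate numbers pair samples. The block gave 5964 genes higher and 5660 lower, against 6360 and 6005 without it. For the shares, pairing by number cannot give a p below 0.25. Library size alone gave 6929 higher and 5370 lower, and moved the median log2 fold change of all genes from 0.01 to 0.09. Without senescent replicate 3, 7052 genes were higher and 6643 lower. Low counts limit *Bach2*, whose interval holds changes of up to 1.35-fold.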

Other observations

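The genes whose log2 CPM ran most like that of each member over the 6 libraries were found among 12951 tested genes with a mean count of at least 100. *Gabarapl1* (an autophagy gene) and *Gal3st4* were nearest to *Maff*, *Plaur* (the urokinase receptor) and *Tshz1* to *Mafk*, *Rusc2* and *Tnk2* to *Mafg*, *Extl3* and *Hsbp1* to *Nfe2l1*, and *Ccdc18* to *Nfe2l3*, each with Pearson's r above 0.99. For *Maf*, *Gtf2a1* and *Lnp* were nearest, with r of 0.994 and 0.993. With 2 groups that differ in most genes, high values are common. An r above 0.99 was reached by 1123 genes for *Maff*, 1184 for *Nfe2l3*, 476 for *Mafk*, 306 for *Nfe2l1*, 157 for *Mafg* and 7 for *Maf*. These values carry no test.

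*Tmem184a* overlaps *Mafk* by 169 bases on the opposite strand. It rose from 0.274 ± 0.0477 to 0.795 ± 0.155 CPM (SD over 3 samples each), with a log2 fold change of 1.54 (adjusted p = 0.000805, edgeR quasi-likelihood, Benjamini-Hochberg), beside 1.52 for *Mafk*. *Tmem184a* had between 13 and 76 counts per library, and *Mafk* between 902 and 4748. The study's methods name a stranded library kit, but without a known strand setting for the counting, the assignment of reads in the shared stretch is uncertain. *Bach2it1* and *Gm24371*, which lie within *Bach2*, had at most 2 counts and 0 counts in any library.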
